A study of Mus musculus with 21 samples.

Results

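The unfolded protein response is the programme by which cells answer misfolded protein in the endoplasmic reticulum (ER). Its sensors and targets are described here through 10 genes, Xbp1, Ern1, Atf6, Atf6b, Herpud1, Sdf2l1, Creb3l4, Ddit4, Sesn2 and Nupr1, chosen by name. These genes, and the gene lists used below, were chosen with earlier results of these data known. Each of the 10 stands on 1 of the 55573 entries of the deposited expression table, and all 10 were among the 18977 entries with a mean of at least 1 TPM (a length-corrected share of each library's transcripts) that were tested. The table holds RNA sequencing of 21 whole testes of C57BL6 male mice: 5 Mageb4 knockout (KO) and 4 wild-type (WT) testes taken 72 h after heat shock, and 6 KO and 6 WT testes without heat shock. Proteins of the MAGE family, to which the product of Mageb4 belongs, partner with ubiquitin ligases, and the comparisons ask what its loss changes in testes with and without heat. The sources used here do not give the KO allele, the age of the animals or the temperature of the heat shock. Mageb4 itself ranged over 0.0900 to 0.150 TPM in heated KO, 7.82 to 8.26 TPM in heated WT, 0.0100 to 0.110 TPM in unheated KO and 1.53 to 1.99 TPM in unheated WT, so the libraries went with their genotype labels. A whole testis mixes germ cells of many stages with Sertoli, Leydig and other somatic cells, and fewer cells of a type cannot be told apart here from less RNA per cell. TPM keeps no sequencing depth, so the counting error of single values is unknown and the error given is the SD between testes.

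IRE1, the product of Ern1, is an ER membrane kinase and nuclease that splices Xbp1 mRNA into the form that encodes an active transcription factor. ATF6, and its paralog ATF6B, sit in the ER membrane and travel under stress to the Golgi apparatus, where site-specific proteases release a transcription factor. Both arms raise genes of ER folding and of ER-associated degradation, while another sensor, PERK, restrains translation and favours ATF4 and its targets, known as the integrated stress response. A gene total in TPM shows neither the splicing of Xbp1 nor the cleavage of ATF6.

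Herpud1, Nupr1 and Sdf2l1 are shown with their promoters because 2 of them rose after heat and the other one fell, and because the only motif matches among the members lay in Herpud1 and Nupr1. Promoter windows of 300 bases, from 250 before the transcription start to 50 after it, were taken from RefSeq on GRCm38.p6 for 9 of the 10 genes (11 windows in all). The windows were searched on both strands for ERSE (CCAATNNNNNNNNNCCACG) and ERSE-II (ATTGGNCCACG), elements bound by ATF6 or XBP1 with NF-Y, for a core of the unfolded protein response element (TGACGTGG), for a core of the C/EBP-ATF element bound by ATF4 (TTGCATCA) and for the cAMP response element (TGACGTCA). Of all 32851 windows in the table, ERSE occurred in 0.119%, ERSE-II in 0.0365%, TGACGTGG in 0.676%, TTGCATCA in 0.895% and TGACGTCA in 1.79%. Capitals mark the matches: in Herpud1, TTGCATCA at bases -112 to -105 and ERSE-II at bases -52 to -42 from the start, and in Nupr1, TTGCATCA at bases -110 to -103. Neither the other windows nor that of Sdf2l1 held a match to these letters. The windows are chr8:94386179-94386478 on the plus strand for Herpud1, chr7:126625421-126625720 on the minus strand for Nupr1 and chr16:17132334-17132633 on the minus strand for Sdf2l1.
Herpud1: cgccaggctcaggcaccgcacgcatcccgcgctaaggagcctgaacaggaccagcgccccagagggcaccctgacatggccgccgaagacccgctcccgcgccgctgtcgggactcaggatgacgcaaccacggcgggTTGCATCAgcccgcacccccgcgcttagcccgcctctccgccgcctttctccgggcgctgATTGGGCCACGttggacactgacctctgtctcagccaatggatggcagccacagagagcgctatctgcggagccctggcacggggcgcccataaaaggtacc
Nupr1: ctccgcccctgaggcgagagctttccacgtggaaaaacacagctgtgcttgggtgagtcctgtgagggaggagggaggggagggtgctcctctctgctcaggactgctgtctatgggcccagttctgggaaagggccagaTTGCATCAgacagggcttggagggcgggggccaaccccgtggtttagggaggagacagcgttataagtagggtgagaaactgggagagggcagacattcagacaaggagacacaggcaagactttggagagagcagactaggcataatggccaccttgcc
Sdf2l1: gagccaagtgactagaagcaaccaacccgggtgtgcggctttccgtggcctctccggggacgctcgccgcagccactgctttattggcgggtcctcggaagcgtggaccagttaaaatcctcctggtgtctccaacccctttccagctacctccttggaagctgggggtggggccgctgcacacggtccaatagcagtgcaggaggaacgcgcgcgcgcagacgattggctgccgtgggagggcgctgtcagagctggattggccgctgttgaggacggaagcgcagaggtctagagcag

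In testes without heat the 10 genes spanned a wide range of TPM, a scale that is corrected for length and so can be set between genes. Creb3l4 stood highest, at 322 ± 13.4 TPM in unheated KO and 328 ± 14.4 TPM in unheated WT (SD, n = 6 each), followed by Herpud1 at 246 ± 7.93 and 255 ± 9.41 TPM and Sdf2l1 at 47.8 ± 2.12 and 47.2 ± 2.81 TPM. The remaining 7 genes had means between 2.71 and 17.8 TPM in unheated KO and between 2.02 and 14.4 TPM in unheated WT, with Sesn2 and Ddit4 at the top and Nupr1 at the bottom. Among these, the ranges of Sesn2 and Ddit4 overlapped in both unheated KO and unheated WT, and so did those of Atf6b and Xbp1. Those of Atf6b and Ddit4 overlapped in unheated KO only. Heat reordered the set in WT: Herpud1 led at 307 ± 35.9 TPM (n = 4), then Ddit4 at 101 ± 10.4, Sesn2 at 79.4 ± 8.17 and Xbp1 at 57.3 ± 4.85 TPM. Creb3l4 fell to 21.02 ± 10.7 TPM there, where its range of 13.4 to 36.3 TPM overlapped those of Sdf2l1, Atf6, Ern1 and Atf6b. In heated KO, Herpud1 also led, at 454 ± 25.5 TPM, above Creb3l4 at 178 ± 35.5 TPM (n = 5), with Ddit4 next at 53.4 ± 6.998 TPM.

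**Figure D1:**
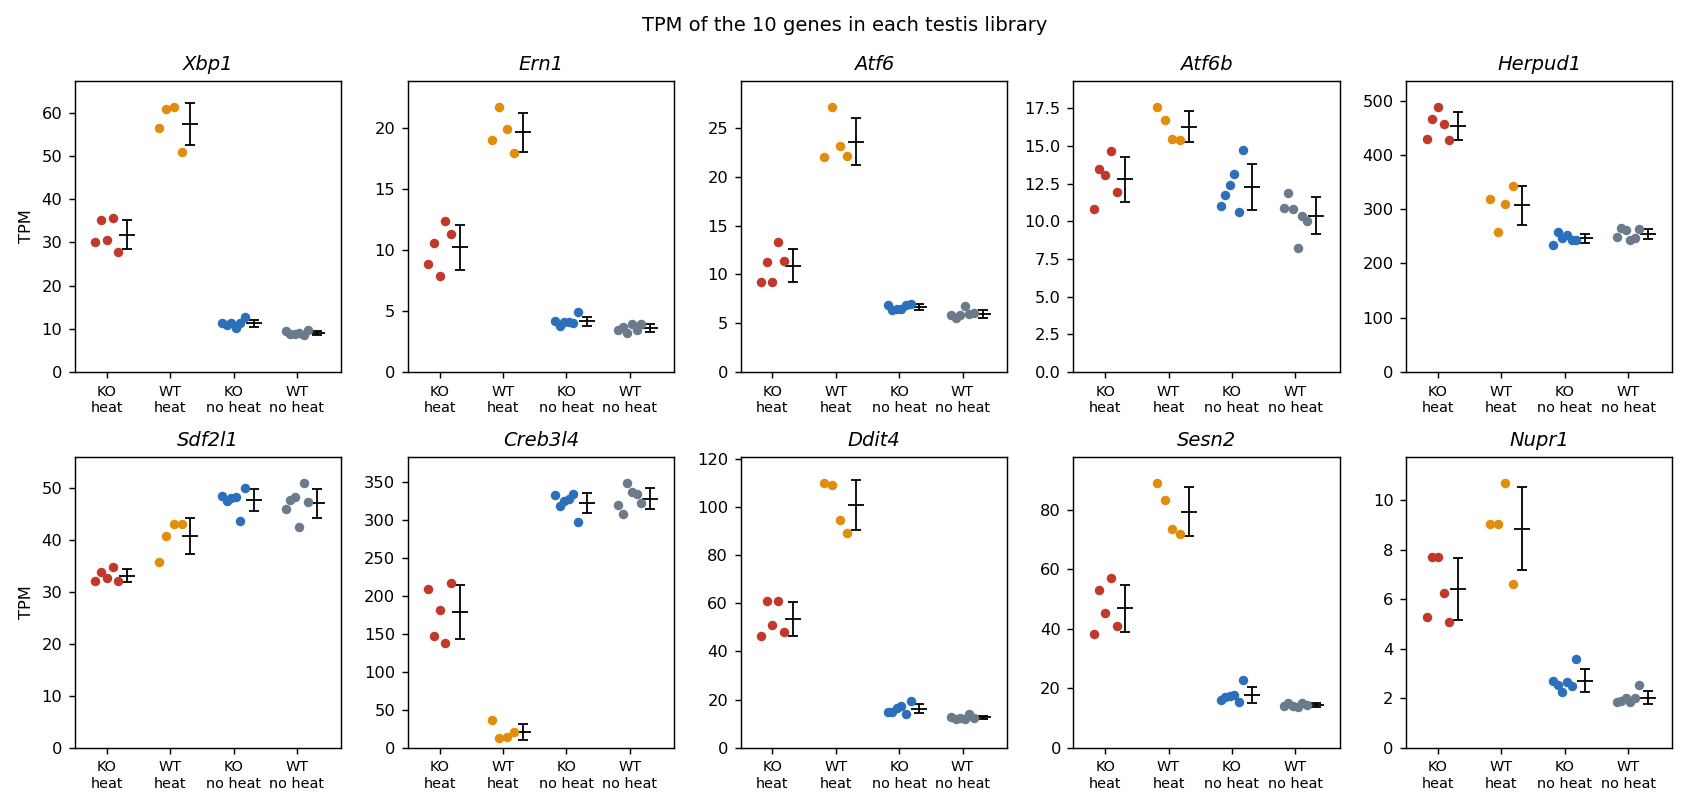
TPM of each of the 10 genes (1 panel per gene, linear axis from 0) in every testis library of the 4 groups, 1 point per library, with the mean ± SD to the right of each group. Xbp1, Ern1, Atf6, Ddit4 and Sesn2 form 3 levels, lowest without heat, intermediate in heated KO and highest in heated WT, while Creb3l4 runs the other way and Herpud1 is highest in heated KO, at 427 to 487 TPM.

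Most of the members rose after heat. In KO, 7 of 10 rose, 2 fell and Atf6b did not pass the test, against a background of 41.3% of all tested genes higher and 41.5% lower. In WT, 8 of 10 rose and 2 fell, against 47.0% of all genes higher and 44.6% lower, with Herpud1 the one member whose direction depended on the scaling. Calls were made by limma on log2(TPM + 1) at a Benjamini-Hochberg adjusted p under 0.05, and log2 differences below are on that scale, where genes of low level show less than their full change. How many of all genes have groups without overlap was not counted, so statements on overlap below describe single genes only. The median log2 difference over the 10 members was 0.93 in KO and 1.75 in WT, beside 0.01 and 0.07 over all genes. Since the members were chosen with earlier results known, these counts and medians describe them and do not test them as a set. Median-of-ratios scaling changes the log2 scale of the libraries by -0.09 for heat in KO, -0.31 for heat in WT, 0.19 for heated KO against heated WT and 0.22 for the difference between both heat effects, and genes of low level shift by less because of the added 1.

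Xbp1, the transcription factor of the IRE1 arm (chr11:5520659-5525893 of mm10, plus strand, protein-coding), was at 30.0, 35.2, 30.5, 35.5 and 27.8 TPM in the heated KO testes and at 56.4, 60.8, 61.2 and 50.8 TPM in the heated WT testes. Without heat it ranged from 10.3 to 12.7 TPM in KO (median 11.3) and from 8.57 to 9.69 TPM in WT (median 8.92). None of the 4 groups overlapped another. Heat raised Xbp1 2.81-fold in KO (log2 difference 1.41 ± 0.07 SE, limma adjusted p = 1.06e-13) and 6.33-fold in WT (2.53 ± 0.07, adjusted p = 1.32e-17), and after heat it was 1.80-fold lower in KO than in WT (adjusted p = 2.83e-09). Ern1, the sensor that splices it (chr11:106394650-106487852, minus strand), moved alike at a lower level: 10.2 ± 1.83 TPM in heated KO against 4.16 ± 0.384 TPM in unheated KO, and 19.6 ± 1.58 TPM in heated WT against 3.61 ± 0.310 TPM in unheated WT. These were rises of 2.45-fold and 5.44-fold (limma adjusted p = 2.44e-10 and 2.94e-15), with no overlap between heated and unheated testes of either genotype.

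Atf6 and Atf6b, the paired sensors that the Golgi proteases cleave, parted after heat. Atf6 (chr1:170704674-170867771, minus strand) was at 9.27, 11.3, 9.20, 13.3 and 11.4 TPM in heated KO and at 22.0, 27.1, 23.2 and 22.1 TPM in heated WT, against 6.36 to 7.0 TPM in unheated KO (median 6.66) and 5.50 to 6.73 TPM in unheated WT (median 5.91). The heated WT testes stood apart from all others, and the heated KO testes lay above every unheated one. The rise was 1.63-fold in KO (log2 difference 0.62 ± 0.08, limma adjusted p = 2.41e-07) and 3.95-fold in WT (1.82 ± 0.08, adjusted p = 5.75e-15). Atf6b (chr17:34647146-34655074, plus strand) was at 10.8, 13.5, 13.1, 14.6 and 11.9 TPM in heated KO, within the span of 10.6 to 14.8 TPM in unheated KO (median 12.1). It was at 17.5, 16.7, 15.4 and 15.4 TPM in heated WT, above the span of 8.21 to 11.9 TPM in unheated WT (median 10.6). The log2 difference was 0.05 in KO, with a 95% interval of -0.13 to 0.24 (adjusted p = 0.584), and 0.61 ± 0.10 in WT (adjusted p = 3.81e-06; 0.32 with median-of-ratios scaling, still past the threshold).

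Herpud1 and Sdf2l1, products of which work in ER quality control, did not follow the sensors. Herpud1 encodes an ER membrane protein with a ubiquitin-like domain that serves ER-associated degradation, and lies at chr8:94386438-94395377 on the plus strand. It was at 429.5, 466, 487, 458 and 427 TPM in heated KO and at 318, 257, 310.0 and 343 TPM in heated WT, against 234 to 257 TPM in unheated KO (median 245) and 243 to 265 TPM in unheated WT (median 255). All 5 heated KO testes lay above every other library, and 1 heated WT testis lay within the unheated span. In KO the rise was 1.84-fold (log2 difference 0.88 ± 0.06, limma adjusted p = 8.49e-12), and in WT it was 1.21-fold (0.26 ± 0.06, adjusted p = 0.000402). The WT call depended on the scaling: with median-of-ratios scaling the log2 difference was -0.05 (adjusted p = 0.514), and with quantile normalization 0.60. Sdf2l1, an ER-resident partner of DNAJB cochaperones (chr16:17130138-17132383, minus strand), fell to 33.2 ± 1.23 TPM in heated KO, against 47.8 ± 2.12 TPM in unheated KO, a log2 difference of -0.51 ± 0.05 (adjusted p = 2.01e-08) with no overlap. In WT it fell to 40.8 ± 3.46 TPM after heat, against 47.2 ± 2.81 TPM without heat (-0.21 ± 0.06, adjusted p = 0.00212), with overlapping groups and no call under quantile normalization (adjusted p = 0.0581). The promoters printed above thus belong to genes of different behaviour, and TTGCATCA was shared by Herpud1, highest in heated KO, and Nupr1, highest on average in heated WT.

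Creb3l4 fell after heat in both genotypes, and its fall in WT was the largest change among the 10 genes. It encodes a membrane-bound transcription factor of the CREB3 family, related to ATF6 in build and known in mouse testis from haploid germ cells, and lies at chr3:90237500-90243512 on the minus strand. Its level was 209, 147, 181, 138 and 217 TPM in the heated KO testes and 36.3, 13.4, 13.7 and 20.6 TPM in the heated WT testes, while unheated testes ranged from 298 to 334 TPM in KO (median 326) and from 308 to 348 TPM in WT (median 328). The 2 heated groups overlapped neither each other nor the unheated testes, whose ranges overlapped. Heat lowered it 1.81-fold in KO (log2 difference -0.87 ± 0.17, limma adjusted p = 8.29e-05) and 15.6-fold in WT (-4.01 ± 0.18, adjusted p = 5.08e-15). After heat KO testes held 8.49-fold more than WT testes (3.12 ± 0.19, adjusted p = 9.37e-12). Markers of germ cells moved too: of 12 round spermatid markers 10 fell and 2 rose in KO and 11 fell in WT, with median log2 differences of -1.90 and -4.79, and of 12 pachytene and diplotene markers 11 fell and 1 rose in each genotype. Of all genes, 41.5% fell and 41.3% rose in KO, and 44.6% fell and 47.0% rose in WT. The part of these cells in the fall of Creb3l4 was not tested.

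The balance between Creb3l4 and other transcription factor genes of the response and the CREB3 family differed between the groups. The 8 genes summed were Xbp1, Atf6, Atf6b, Creb3l4, Creb3, Creb3l1, Creb3l2 and Creb3l3, of which Xbp1 does not encode a membrane-bound factor. Of their summed TPM, Creb3l4 held 53.0% ± 7.72 in heated KO, 6.94% ± 3.44 in heated WT, 81.8% ± 1.46 in unheated KO and 85.1% ± 0.952 in unheated WT (SD, n = 5, 4, 6 and 6). Creb3, the founding member of the family, held 25.9% ± 4.62, 54.3% ± 2.44, 8.83% ± 0.808 and 6.94% ± 0.629 in the same order, and Xbp1 9.58% ± 1.54, 18.9% ± 1.19, 2.87% ± 0.254 and 2.35% ± 0.147. The sum itself was 334 ± 18.7 TPM in heated KO, 304 ± 21.1 TPM in heated WT, 394 ± 10.7 TPM in unheated KO and 385 ± 14.2 TPM in unheated WT. Creb3l4 was thus the most abundant of the 8 in every group but heated WT, where Creb3 was, at 165 ± 15.6 TPM.

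**Figure D2:**
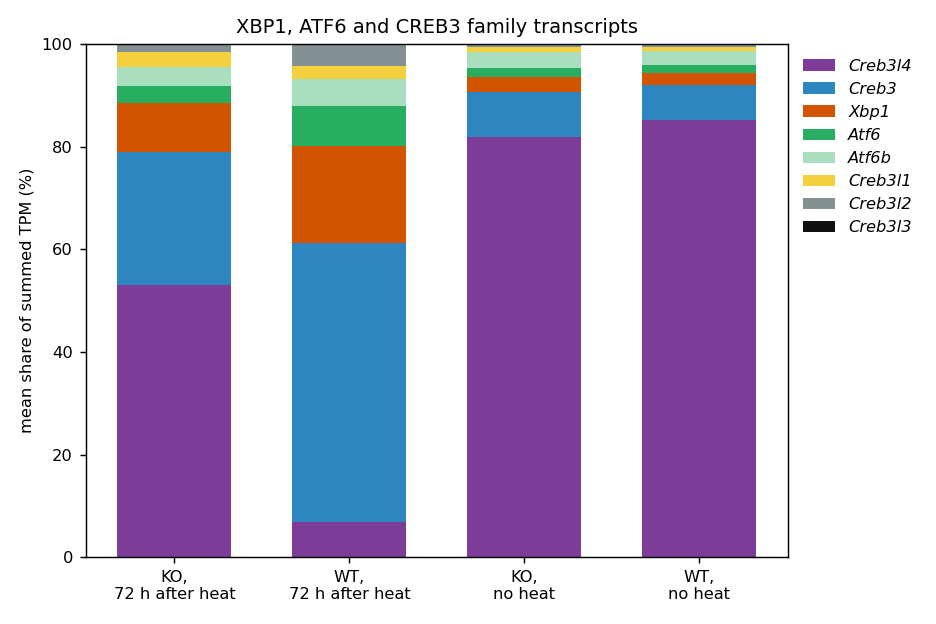
Mean share (percent) of each gene in the summed TPM of Xbp1, Atf6, Atf6b and 5 CREB3 family genes, 1 stacked bar per group (n = 5, 4, 6 and 6 testes). Creb3l4 takes 53.0% in heated KO and 6.94% in heated WT, against 81.8% and 85.1% without heat, and Creb3 and Xbp1 take the largest shares in heated WT.

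Ddit4, Sesn2 and Nupr1 are genes induced by many stresses, the integrated stress response among them. Ddit4 (chr10:59949669-59951834, minus strand), whose product REDD1 restrains the growth kinase complex mTORC1, was at 46.4, 60.8, 50.9, 61.0 and 48.0 TPM in heated KO and at 109.9, 109, 94.5 and 89.2 TPM in heated WT. Without heat it ranged from 14.2 to 19.3 TPM in KO (median 15.8) and from 12.0 to 13.9 TPM in WT (median 12.3). No groups overlapped, and its rises of 3.30-fold in KO (log2 difference 1.66 ± 0.09, limma adjusted p = 3.08e-13) and 7.99-fold in WT (2.90 ± 0.09, adjusted p = 3.57e-17) were the largest rises among the members. Sesn2 (chr4:132492032-132510501, minus strand), a leucine-binding sestrin that also restrains mTORC1, reached 46.9 ± 7.97 TPM in heated KO against 17.8 ± 2.57 TPM in unheated KO. It reached 79.4 ± 8.17 TPM in heated WT against 14.4 ± 0.605 TPM in unheated WT, and the rises were 2.64-fold and 5.53-fold (adjusted p = 4.26e-11 and 2.53e-15). Nupr1 (chr7:126623249-126630861, minus strand), a small stress-induced nuclear protein, was the lowest member. It was at 6.40 ± 1.26 TPM in heated KO against 2.71 ± 0.454 TPM in unheated KO, and at 8.84 ± 1.68 TPM in heated WT against 2.02 ± 0.263 TPM in unheated WT (adjusted p = 7.04e-08 and 1.40e-11).

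**Figure D3:**
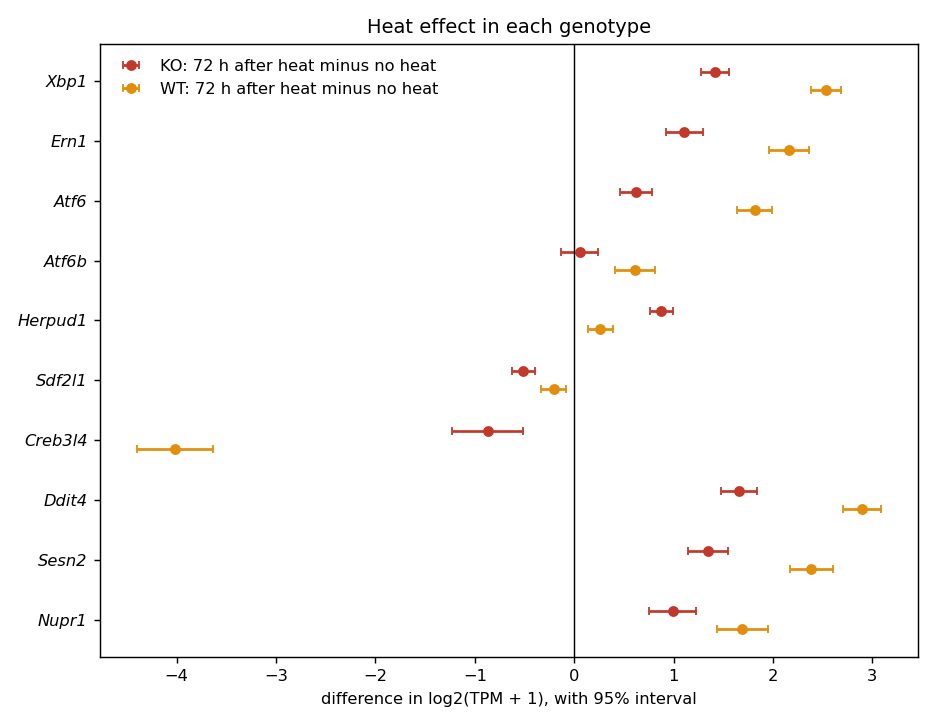
Difference in log2(TPM + 1) between heated and unheated testes for each of the 10 genes, in KO (red) and WT (orange), with 95% moderated intervals from limma. The WT point lies farther from 0 than the KO point for 8 genes, and the KO point lies farther for Herpud1 (0.88 against 0.26, or -0.05 in WT with median-of-ratios scaling) and Sdf2l1 (-0.51 against -0.21).

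The heat effect differed between the genotypes for all 10 genes by the test of the difference itself. The signed difference, KO minus WT, was above 0 for 2 of 10 and below 0 for 8 of 10, beside 33.2% and 47.6% of all genes. The split of all genes depended on the scaling. With median-of-ratios scaling 7244 were above 0 and 7452 below 0, against 6297 and 9024 with the scaling as deposited. Creb3l4 lies above 0 because its fall was smaller in KO, and Sdf2l1 below 0 because its fall was larger in KO. For Xbp1, Ern1, Ddit4, Sesn2 and Nupr1 the log2 change in KO was 0.512 to 0.584 of that in WT, and for Atf6 it was 0.342 of it. The ratio was 0.0887 for Atf6b and 0.217 for Creb3l4, against 3.36 for Herpud1 and 2.45 for Sdf2l1. The ratios of Herpud1, Atf6b and Sdf2l1 depended on the scaling: with median-of-ratios scaling the log2 changes in KO and WT were 0.79 and -0.05 for Herpud1, -0.03 and 0.32 for Atf6b, and -0.60 and -0.51 for Sdf2l1. The differences of the heat effects, KO minus WT, ran from -1.24 ± 0.13 for Ddit4 (limma adjusted p = 2.96e-08) to 3.14 ± 0.25 for Creb3l4 (1.31e-09). That of Sdf2l1, -0.30 ± 0.08 (adjusted p = 0.00168), was lost with median-of-ratios scaling (adjusted p = 0.343) and quantile normalization (0.114).

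Heated KO testes set directly against heated WT testes gave 2 of 10 members higher and 8 lower, against 34.4% of all genes higher and 49.0% lower. Atf6 differed most among the lower ones, at 10.9 ± 1.72 TPM in heated KO and 23.6 ± 2.38 TPM in heated WT (log2 difference -1.06 ± 0.09, limma adjusted p = 7.44e-10). Ddit4 followed at -0.91 ± 0.10, Ern1 at -0.89 ± 0.10, Xbp1 at -0.83 ± 0.08 and Sesn2 at -0.76 ± 0.11, each with no overlap between genotypes, a trait not counted over all genes. Herpud1 and Creb3l4 were the 2 higher ones, Herpud1 by 1.48-fold (0.57 ± 0.06, adjusted p = 5.64e-08). The smaller differences of Nupr1 (-0.41 ± 0.13), Atf6b (-0.33 ± 0.10) and Sdf2l1 (-0.29 ± 0.06) lost their calls with median-of-ratios scaling (adjusted p = 0.094, 0.136 and 0.166), which left 5 members lower. The excess of lower genes over all genes also depended on the scaling. With median-of-ratios scaling 7461 of all genes were higher and 7691 lower, against 6534 and 9304 with the scaling as deposited.

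**Figure D4:**
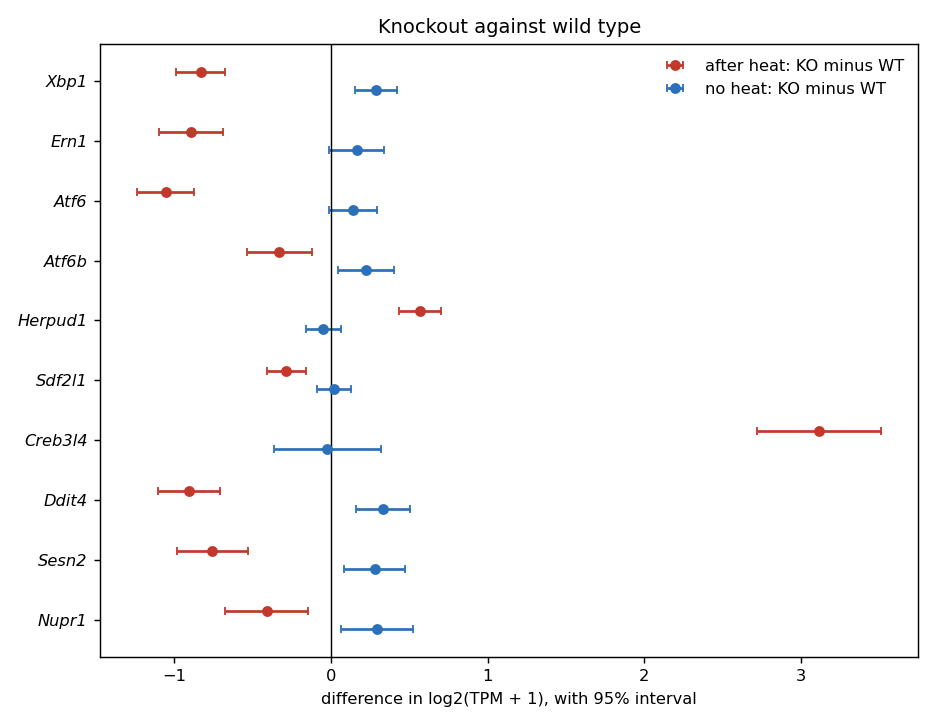
Difference in log2(TPM + 1) between KO and WT testes for each of the 10 genes, after heat (red) and without heat (blue), with 95% moderated intervals from limma. After heat only Creb3l4 (3.12) and Herpud1 (0.57) lie above 0, and without heat the largest differences are 0.33 for Ddit4 and 0.29 for Nupr1 and Xbp1.

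Without heat the genotypes differed little. Xbp1 was 1.25-fold higher in unheated KO (log2 difference 0.29 ± 0.06, limma adjusted p = 0.0368), and Ddit4 1.28-fold higher (0.33 ± 0.08, adjusted p = 0.0488). These 2 of 10 members were called higher and 0 lower, against 1.25% and 0.0843% of all genes. Of all genes called without heat, 93.7% were higher in KO (237 against 16), and 62.9% with quantile normalization (44 against 26). For both, every unheated KO testis lay above every unheated WT testis, but the calls were not stable. Of 30 alternatives, Ddit4 was called in 10 (limma adjusted p from 0.0186 to 0.146), and it lost the call without any 1 of the 12 unheated libraries. Xbp1 was called in 18 of 30 (limma adjusted p from 0.012 to 0.122). Sesn2 also had no overlap, at 15.5 to 22.7 TPM in unheated KO and 13.7 to 15.1 TPM in unheated WT, and did not pass (0.28 ± 0.09, adjusted p = 0.122). Unheated KO replicate 6 held the highest value of its group for 8 of the 10 members, with 22.7 TPM of Sesn2, 19.3 TPM of Ddit4 and 12.7 TPM of Xbp1. Without that library the log2 differences were 0.26 for Xbp1 (adjusted p = 0.113) and 0.28 for Ddit4 (adjusted p = 0.146). Creb3l4 (-0.03, 95% interval -0.37 to 0.32), Herpud1 (-0.05, -0.16 to 0.06) and Sdf2l1 (0.02, -0.09 to 0.13) did not pass.

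Markers of testis cell types also changed between the groups. The summed TPM of 15 Sertoli cell markers, all 15 of which rose in both genotypes after heat, was 5657 to 8087 in heated KO, 12285 to 14801 in heated WT, 2037 to 2693 in unheated KO and 1621 to 1842 in unheated WT, the same order of groups as Xbp1. The highest unheated KO value was that of replicate 6. Of the 15 markers, 5 were called higher in unheated KO than in unheated WT, against 1.25% of all genes. Calls in this comparison were not stable: over all genes 237 were higher, and 15 to 468 when each library was left out. Within heated KO, replicates 2 and 4 held the highest sums, 7911 and 8087 TPM, the highest Xbp1, Ddit4, Sesn2, Atf6b and Sdf2l1 and the lowest Creb3l4. Other members differed: Ern1 and Atf6 were highest in replicates 4 and 5, and Herpud1 and Nupr1 in replicates 2 and 3. Replicate 5 had a Sertoli sum of 5790 TPM. In heated WT the highest Xbp1, 61.2 TPM, was in replicate 3, and the highest sum, 14801 TPM, in replicate 2. The 11 markers of elongating and condensing spermatids, from transition proteins and protamines to outer dense fibre genes, summed to 74410.0 to 92876 TPM in heated KO, 33793 to 45659 TPM in heated WT, 46982 to 54105 TPM in unheated KO and 44768 to 55801 TPM in unheated WT, highest in heated KO as Herpud1 was. In WT the mean sum was 41406 TPM after heat and 51431 TPM without heat, where Herpud1 averaged 307 and 255 TPM. The 11 spermatid markers did not move as 1: after heat all 11 rose in KO, while in WT 6 rose and 4 fell. Set against heated WT, 8 were higher in heated KO and 0 lower, against 34.4% and 49.0% of all genes. Abundant transcripts weigh most in the sum. Tnp1 was at 18948 TPM in heated KO and 2704 TPM in heated WT, and Odf1 at 3351 and 3305 TPM. All 10 Leydig, 12 leukocyte, 8 endothelial and 7 peritubular myoid markers rose in both genotypes. Of 6 tested markers of undifferentiated spermatogonia, 3 rose and 1 fell in KO, and 4 rose and 2 fell in WT. Of all genes, 41.3% rose and 41.5% fell after heat in KO, and 47.0% rose and 44.6% fell in WT. After heat 14 of the 15 Sertoli markers were lower in KO than in WT, against 49.0% of all genes. All 12 round spermatid markers were higher, against 34.4% of all genes. No marker was at 0 in every library, and the part of these cells in the members' changes was not tested. Heated WT replicate 3 held 3548 TPM over 6 epididymis markers, against at most 18.6 TPM in the other libraries; without it, all 10 members kept their calls for heat in WT and for KO against WT after heat.

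**Figure D5:**
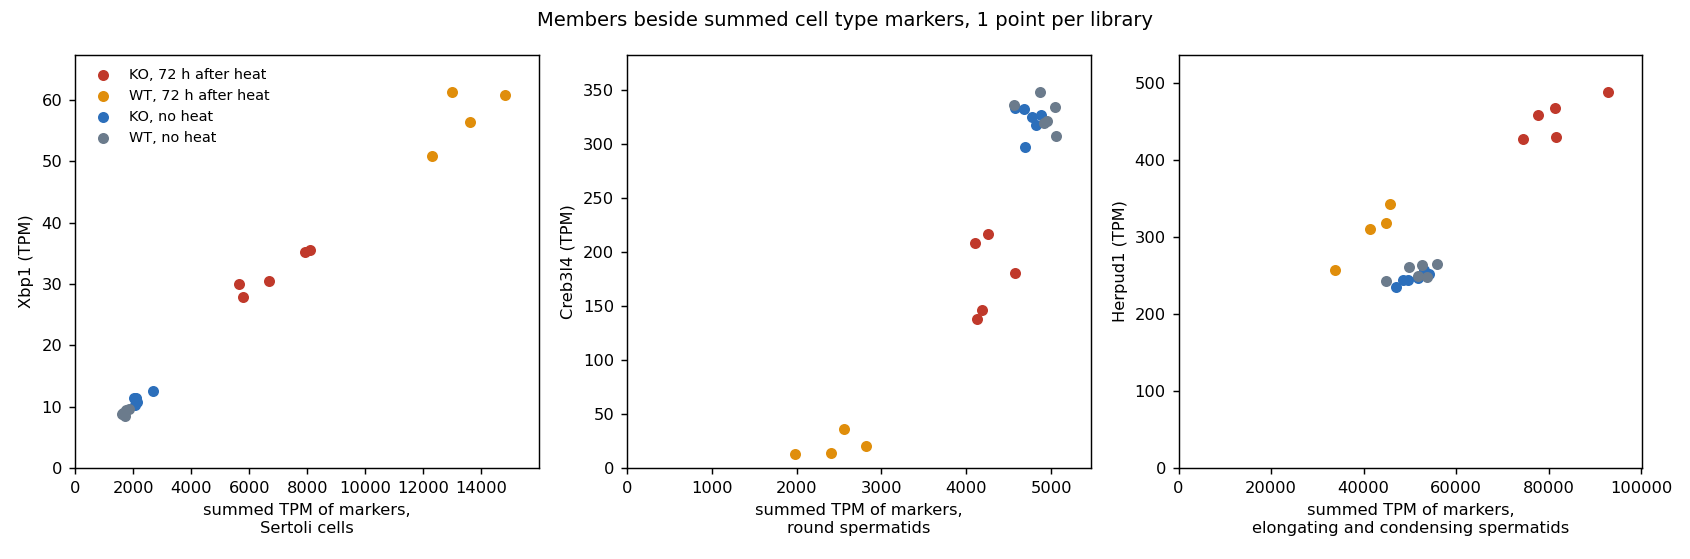
TPM of Xbp1, Creb3l4 and Herpud1 against the summed TPM of Sertoli cell, round spermatid and elongating spermatid markers, 1 point per library and linear axes from 0. Gapdhs alone averaged 2834 of 4249 TPM of the round spermatid sum in heated KO and 2001 of 2441 TPM in heated WT. Without heat it averaged 1778 of 4737 TPM in KO and 1849 of 4901 TPM in WT. The median log2 difference of the 12 round spermatid markers after heat was -1.90 in KO and -4.79 in WT. Heated WT lies at the top for Xbp1, the unheated testes, whose genotypes overlap, at the top for Creb3l4, and heated KO at the top for Herpud1, and both values of a point share the library they come from.

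Of 33 genes of ER folding and degradation, 23 rose and 6 fell after heat in KO, against 41.3% and 41.5% of all genes, with a median log2 difference of 0.38. In WT 27 rose and 5 fell, against 47.0% and 44.6% of all genes, with a median of 1.075. After heat 2 were higher and 29 lower in KO than in WT, against 34.4% and 49.0% of all genes. Fkbp14, a prolyl isomerase of the ER, reached 41.6 ± 7.83 TPM in heated KO against 12.6 ± 0.748 TPM in unheated KO, and 109.6 ± 10.6 TPM in heated WT against 10.6 ± 0.259 TPM in unheated WT. The disulfide isomerase gene Pdia4 rose 1.98-fold in KO and 4.00-fold in WT, and Calr, encoding the lectin chaperone calreticulin, 1.47-fold and 2.72-fold (limma adjusted p at most 1.81e-09 for each). The 5 that fell in WT were Creld2, Derl2, Selenos, Sil1 and Ube2j1, named for their small number, and Sdf2l1 shared their direction.

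In the PERK branch 11 of 15 listed genes were tested, since Trib3, Vldlr and Cebpb were under 1 TPM on average and Ddit3 stands on 2 entries of the table. Of these 11, 6 rose and 3 fell in KO, where 41.3% of all genes were higher and 41.5% lower. In WT 7 rose and 3 fell, where the shares of all genes were 47.0% and 44.6%, and the number that rose ran from 4 to 10 over the alternatives. Psat1, of serine synthesis, rose 3.01-fold in KO and 6.83-fold in WT (limma adjusted p = 1.95e-13 and 2.46e-17). Asns, encoding asparagine synthetase, was at 159 ± 24.6 TPM in heated KO and 81.3 ± 8.96 TPM in heated WT, a log2 difference of 0.96 ± 0.09 (adjusted p = 5.69e-09). It fell in WT, where the unheated level was 146 ± 10.7 TPM, and did not pass in KO, at 150.5 ± 6.11 TPM unheated. Cebpg, a partner of ATF4, fell 2.46-fold in KO and 3.53-fold in WT.

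All 6 tested genes of the ATF6 and CREB3 family list rose in both genotypes, where 41.3% of all genes in KO and 47.0% in WT did so, Creb3 by 2.47-fold in KO and 6.16-fold in WT and Creb3l2 by 2.60-fold and 7.48-fold. The list includes Mbtps1 and Mbtps2, the Golgi proteases that release ATF6, and Rtcb, the ligase that joins the Xbp1 exons. Rtcb was at 50.5 ± 3.79 TPM in heated KO and 77.9 ± 1.89 TPM in heated WT. After heat 5 of the 6 were lower in KO than in WT, against 49.0% of all genes, and Creb3l1 did not pass (log2 difference 0.30, limma adjusted p = 0.107, called higher with median-of-ratios scaling). Creb3 was also higher in unheated KO than in unheated WT (0.36 ± 0.08, limma adjusted p = 0.0357). It was the 1 gene of the list called there, against 1.25% of all genes, and the call was not stable. The number of the list called higher ran from 0 to 1 when each library was left out, and from 0 to 2 over the alternatives. Among 8 further restrainers of mTORC1, 6 rose and 1 fell in KO, against 41.3% and 41.5% of all genes. In WT 6 rose and 0 fell, against 47.0% and 44.6% of all genes, and 2 fell there with median-of-ratios scaling. Sesn1 rose 2.37-fold in KO and 4.55-fold in WT, and Deptor 3.01-fold and 9.28-fold. Sesn3, the 1 called lower in KO with the scaling as deposited and all libraries, fell to 14.4 ± 2.69 TPM in heated KO against 21.1 ± 1.5 TPM in unheated KO, and was at 20.8 ± 1.36 TPM in heated WT and 20.8 ± 2.28 TPM in unheated WT. Ddit4l, the paralog of Ddit4, stood at 20.8 ± 3.14 TPM in heated KO and 42.3 ± 3.31 TPM in heated WT.

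Genes with the most similar pattern were sought over the 21 libraries among 10746 named genes of at least 5 TPM on average, by the mean absolute difference of log2(TPM + 1) after centring each gene on its own mean. Nearest to Xbp1 were Ppp1ca (0.0475), Dmrtc1a (0.0542) and Gpr55 (0.0586). Nearest to Creb3l4 were Spn-ps (0.0405), Ccdc183 (0.0573) and Mak (0.0657), and Spn-ps averaged 117 ± 20.9 TPM in heated KO, 13.9 ± 7.199 TPM in heated WT, 207 ± 14.2 TPM in unheated KO and 217 ± 8.62 TPM in unheated WT. Retreg1, an ER-phagy receptor, was nearest to Herpud1 (0.0464), at 146 ± 5.13 TPM in heated KO, 98.3 ± 11.4 TPM in heated WT, 80.8 ± 3.73 TPM in unheated KO and 83.3 ± 1.88 TPM in unheated WT, followed by Nudt16l2 and Fscn3. Ddit4 lay nearest to Cited2, Rnf135 and Pdia5, Sesn2 to Gnai2, Fbxo21 and Fbrsl1, Ern1 to Crebl2, Ap1s2 and Hccs, and Atf6 to Gpalpp1, Slf2 and Clasp2. Atf6b lay nearest to Med11, Coasy and Dohh, Sdf2l1 to Bub3, Mrpl20 and Gpr108, and Nupr1 to Mrpl58, Cdk2ap1 and Tmed9. Among the members, Xbp1 and Sesn2 were the closest pair (0.102). All of these distances are over libraries that fall into the same 4 groups.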

How the data were processed

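RNA from whole testes was sequenced as stranded, poly(A)-selected libraries, per the labels' protocols, which call the samples biological replicates. The authors deposited 1 table of TPM per gene, whose columns sum to 999999 to 1000001. STAR and mm10 are named in the submitters' processing notes, and the sources used here do not give the quantifier, the annotation or the versions. TPM are shares, so a gene can move because others do, and depth and counting error are unknown.

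Log2(TPM + 1) was fitted with limma 3.58.1 in R 4.3.3 for the 18977 of 55573 entries with a mean of at least 1 TPM. One fit held all 21 libraries as 4 group means, with a mean-variance trend, and p-values were adjusted over all tested genes by Benjamini-Hochberg. The fit was tested on simulated data. The members and the gene lists were chosen with earlier results of these data known. The named genes are the members, the 2 genes of each pathway list with the largest moderated t for heat in WT and for KO against WT after heat, and the 3 nearest in pattern to each member. Any others are named with their reason. Coordinates are from GENCODE M21 on mm10, where genes overlapping the members share 0 exonic bases with them. No 2 libraries were identical.

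Alternatives were other pseudocounts (0.1 and 5), filters (none, or 5 TPM), median-of-ratios scaling, quantile normalization, a replicate block, only the groups compared, no trend, and each library left out.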

Additional observations from a re-analysis of the deposited data

Results flagged for a closer look

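The test of the difference between the heat effects, KO minus WT, passed the threshold for all 10 members, which is why each is listed. Of all genes, 33.2% passed it with a difference above 0 and 47.6% with a difference below 0. Sdf2l1 lost its call with median-of-ratios scaling (limma adjusted p = 0.343) and with quantile normalization (0.114). On the log2 scale the difference was -1.12 for Xbp1, -1.06 for Ern1, -1.20 for Atf6, -0.55 for Atf6b and -0.30 for Sdf2l1. It was -1.24 for Ddit4, -1.04 for Sesn2 and -0.70 for Nupr1, and it was above 0 for Herpud1 (0.62) and Creb3l4 (3.14). Both heat effects were measured against their own unheated testes. Sertoli and spermatid markers also changed after heat, and their part was not tested.

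A library stood apart from its group by Dixon's criterion in 3 of the 40 groups of values examined, where chance flags about 1 in 20 groups. Unheated KO replicate 6 held 22.7 TPM of Sesn2 and 3.58 TPM of Nupr1, both far above the other 5 libraries of its group. Unheated WT replicate 6 held 2.53 TPM of Nupr1, above its group.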

How the results depend on the processing

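Of 1485 recomputed log2 differences of single members, 1440 kept their direction and side of the threshold, 38 lost the call, 2 gained it and 5 changed sign. The sign changes were Atf6b for heat in KO (-0.031) and Herpud1 for heat in WT (-0.049), both with median-of-ratios scaling, and Sdf2l1 without heat, at -0.0093 with that scaling, -0.000201 with quantile normalization and -0.0109 without unheated WT replicate 4. Leaving out each library gave Sdf2l1 a range of -0.0109 to 0.0425 there. The number of members higher in KO without heat, 2 as reported, was 0 with a pseudocount of 5, with no filter and with quantile normalization, 1 with no trend, and 4 with only the groups compared. Over all genes the number higher was 86 with a pseudocount of 5, 66 with no filter and 44 with quantile normalization. It was 186 with no trend and 1175 with only the groups compared. The number of members higher ranged from 0 to 2 when each library was left out. With the replicate block it was 1, since Ddit4 reached an adjusted p of 0.0773, and the block changed no other member's call. Same-numbered libraries correlated between -0.228 and 0.314 over 28 pairs, 4 of them above 0.1, so the numbers were not taken to pair testes. Members lower in KO after heat numbered 5 with median-of-ratios scaling, and members lower after heat in WT numbered 1 with quantile normalization. Over all genes, 7691 were lower in the first case, against 9304 as reported, and 8064 in the second, against 8460. The causes were not tested. Over all genes, the number higher in KO without heat ran from 15 to 1175 and the number lower from 4 to 137 across the alternatives, against 237 and 16 as reported, and 13516 genes were higher after heat in WT with no filter, against 8925. The filter of 5 TPM leaves Nupr1 untested. Depth is unknown, so counting error cannot be given for low genes such as Nupr1.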
